A study of Homo sapiens with 11 samples.

Results

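The genes described here encode proteins that carry a cell from G2 through mitosis. The 36 members were listed by symbol, with no threshold on their values. They cover CDK1 and its regulators, mitotic kinases, spindle checkpoint proteins, the anaphase-promoting complex with its substrates, centromere proteins, kinesins, other spindle and cytokinesis proteins, and 2 proteins of chromosome structure. All 36 were measured, among 19775 genes in all, by 76 probe sets that carry exactly 1 of these symbols. A further probe set, annotated to CENPA and another gene together, was left out. A value is the mean of a gene's probe sets on the log2 scale, relative to the median gene of the same array, so 0 is that array's median gene. The deposited values were centred for each probe set, so they give differences between arrays and no level of a gene, and the cell line's own markers could not be checked.

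The cells were MDA-MB-231, an established human breast cancer line with little estrogen receptor alpha. The study asked how estradiol, free or bound to a protein, acts on early transcription in them. On 11 HG-U133 Plus 2.0 arrays the groups were control (2 arrays), E2-BSA at 1 µM (2 arrays), and 1 array each of ethanol at 0.1%, estradiol at 1 µM, BSA at 1 µM, ICI at 10 µM, G15 at 10 µM, E2-BSA with ICI and E2-BSA with G15. E2-BSA is estradiol coupled to bovine serum albumin, BSA is the carrier protein alone, ICI is an antagonist that the labels name only so, and G15 blocks the membrane estrogen receptor GPER. All cells, controls included, first stood for 4 h in serum stripped with charcoal, and the agents then acted for 3 h. The labels do not say whether duplicates were separate cultures. The p-values measure the spread of these arrays around the fitted terms, which may be technical. The small number of arrays limits the precision.

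Entry into mitosis is set by CDK1 bound to cyclin B, which the CDC25 phosphatases activate and which PLK1 and the Aurora kinases act beside. The spindle checkpoint holds CDC20 back until every kinetochore is attached, after which the anaphase-promoting complex marks securin and cyclin B for destruction. Transcripts of this programme peak late in the cell cycle, and the MuvB complex with B-MYB and FOXM1, through a promoter element called the cell cycle gene homology region (CHR), and NF-Y, through CCAAT boxes, are known to drive many of them. In a bulk RNA sample, fewer cells in G2 or mitosis and less of these transcripts per cell cannot be told apart.

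Promoters were read from RefSeq (GRCh38.p14), from 250 bases before to 50 bases after each start, and 29 of the 36 members had an entry. TPX2, TTK, AURKA, BIRC5, BUB3, FOXM1 and UBE2C had none in the table used. The search took 2 motifs on both strands. The CHR type was TTTGAA, which reads TTCAAA on the other strand, or TTCGAA, which reads the same on both. The CCAAT box was CCAAT, which reads ATTGG on the other strand. A CHR-type match was present in 21 of the 29 members (72.4%), against 19.5% of all 27305 genes in the table. A CCAAT box was present in 26 (89.7%), against 39.7% of all genes, and both were present in 20 (69%), against 9.02%. Over single promoters of the same length, 16.4% of 35116 held a CHR-type match and 34.6% a CCAAT box. These counts describe letters in a window and show no binding.

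The promoters below belong to 5 members that were lower and 2 that were higher in the comparison of array sets that follows. They are printed 5′ to 3′ on the strand of the gene, with the motifs in capitals. MKI67 lies at chr10:128126374-128126673 on the minus strand, CDC20 at chr1:43358731-43359030 on the plus strand, PLK1 at chr16:23678639-23678938 on the plus strand and KIF23 at chr15:69414099-69414398 on the plus strand. AURKB lies at chr17:8210176-8210475 on the minus strand, MAD2L1 at chr4:120066799-120067098 on the minus strand and KIF4A at chrX:70289854-70290153 on the plus strand.
MKI67: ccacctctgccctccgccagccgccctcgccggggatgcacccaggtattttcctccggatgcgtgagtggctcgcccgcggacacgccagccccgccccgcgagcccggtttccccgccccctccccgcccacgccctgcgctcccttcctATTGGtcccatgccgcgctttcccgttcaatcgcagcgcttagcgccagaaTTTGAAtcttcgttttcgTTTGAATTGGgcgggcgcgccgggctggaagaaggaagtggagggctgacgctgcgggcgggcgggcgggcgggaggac
CDC20: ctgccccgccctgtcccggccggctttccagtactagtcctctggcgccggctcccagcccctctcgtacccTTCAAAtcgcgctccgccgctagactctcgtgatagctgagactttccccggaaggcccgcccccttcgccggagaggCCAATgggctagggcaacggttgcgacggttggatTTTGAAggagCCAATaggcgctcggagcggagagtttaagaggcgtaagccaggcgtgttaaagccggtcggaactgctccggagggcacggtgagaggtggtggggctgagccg
PLK1: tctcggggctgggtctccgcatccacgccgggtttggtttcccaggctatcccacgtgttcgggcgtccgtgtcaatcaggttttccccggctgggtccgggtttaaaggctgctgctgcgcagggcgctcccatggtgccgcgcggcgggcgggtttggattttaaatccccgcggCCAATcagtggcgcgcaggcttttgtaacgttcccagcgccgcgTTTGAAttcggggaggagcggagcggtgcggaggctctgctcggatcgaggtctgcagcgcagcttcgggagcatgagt
KIF23: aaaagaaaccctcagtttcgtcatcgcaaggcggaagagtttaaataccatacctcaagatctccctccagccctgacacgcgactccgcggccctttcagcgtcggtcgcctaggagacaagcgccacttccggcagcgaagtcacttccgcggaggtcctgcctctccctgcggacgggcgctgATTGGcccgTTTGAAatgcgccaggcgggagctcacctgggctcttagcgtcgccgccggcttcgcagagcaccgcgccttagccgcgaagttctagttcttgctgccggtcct
AURKB: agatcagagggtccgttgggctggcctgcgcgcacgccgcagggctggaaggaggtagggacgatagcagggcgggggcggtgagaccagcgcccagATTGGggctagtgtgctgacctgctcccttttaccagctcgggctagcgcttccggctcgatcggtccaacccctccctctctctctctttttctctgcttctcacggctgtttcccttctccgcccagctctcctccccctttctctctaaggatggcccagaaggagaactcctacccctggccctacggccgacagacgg
MAD2L1: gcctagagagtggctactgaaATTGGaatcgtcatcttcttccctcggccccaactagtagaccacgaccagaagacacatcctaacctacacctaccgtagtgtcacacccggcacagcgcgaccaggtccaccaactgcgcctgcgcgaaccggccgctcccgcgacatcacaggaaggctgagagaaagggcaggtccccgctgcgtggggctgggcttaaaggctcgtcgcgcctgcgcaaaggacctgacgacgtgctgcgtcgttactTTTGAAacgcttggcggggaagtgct
KIF4A: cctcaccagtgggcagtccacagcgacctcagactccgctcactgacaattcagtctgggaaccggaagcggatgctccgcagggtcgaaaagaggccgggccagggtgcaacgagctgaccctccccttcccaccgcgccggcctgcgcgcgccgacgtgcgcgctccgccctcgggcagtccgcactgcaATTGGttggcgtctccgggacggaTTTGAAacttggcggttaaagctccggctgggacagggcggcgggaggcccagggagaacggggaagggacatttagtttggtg
In MKI67 a CHR-type match and a CCAAT box read on the other strand share a base, in TTTGAATTGG. CDC20 held 2 matches of each type, while PLK1, KIF23, MAD2L1 and KIF4A held 1 of each. AURKB held a CCAAT box and no CHR-type letters in this window. Both motifs were thus found in members of either direction. The higher direction rests on MAD2L1 and KIF4A alone, and that of MAD2L1 depends on which of its probe sets is read, as described below.

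**Figure D1:**
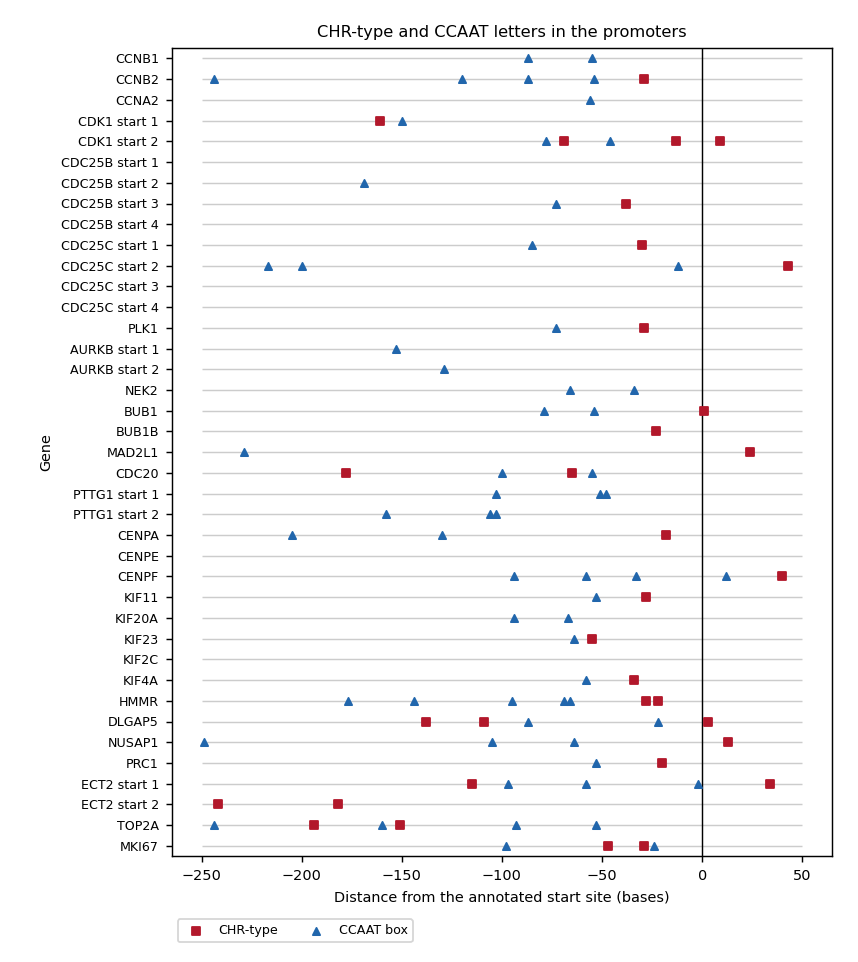
Position of CHR-type matches and CCAAT boxes in the promoters of the members with an entry, in bases from the start site. Each row is a promoter and each mark a match; CHR-type matches were found in 21 of 29 members and CCAAT boxes in 26.

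The motifs were also counted by response. Of the members called lower below, 12 had a promoter entry, with a CHR-type match in 7 (58.3%) and a CCAAT box in 10 (83.3%). Both members called higher held both motifs. Of the 15 members with an entry that were not called, 12 (80%) held a CHR-type match and 14 (93.3%) a CCAAT box. The difference between these groups was not tested.

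The arrays fell into sets of 3 and 8 by the mean of the poly-A spike-ins, bacterial RNAs that are added to a sample before it is labelled. First control, estradiol and first E2-BSA made up the set of 3, at 1.62, 1.58 and 1.40, and the other 8 arrays lay at -0.56 to 0.10. The GAPDH control probe sets moved with the sets, at -0.30 to -0.14 in the set of 3 and -0.02 to 0.31 in the set of 8. The difference between the 3′ and 5′ GAPDH probe sets did not, at -0.07 to -0.04 against -0.15 to 0.08. For ACTB that difference was -0.31, -0.28 and -0.15 in the set of 3 and -0.17 to 0.35 in the set of 8. The part of spike-in amount, labelling or culture in the values below was not tested, and since the labels name no batch, these cannot be told apart.

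Mitosis genes were mostly below the median gene in the set of 3 and above it in the set of 8. The median member stood at -0.22 with control, -0.10 with estradiol and -0.23 with E2-BSA in the set of 3. In the set of 8 it stood at 0.12 in the second control, 0.09 in the second E2-BSA, 0.10 in the ICI, 0.13 in the G15, 0.12 in the E2-BSA with ICI, 0.10 in the E2-BSA with G15 and 0.22 in the BSA array. The ethanol array was the lowest of the set of 8 at -0.04, and its value was still above all of the set of 3. In the set of 3, 6, 11 and 7 of the 36 members lay above the median gene, in the order control, estradiol and E2-BSA. In the set of 8 the count was 16 with ethanol and 25 to 34 in the other 7 arrays.

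The members varied widely around that median. FOXM1 was the lowest member on each array of the set of 3, at -1.32 to -1.17, while the highest was NEK2 at 0.56 in the first control and CDK1 at 0.62 with estradiol and 0.49 with E2-BSA. In the set of 8, AURKB was the highest on 4 arrays, at 1.10 in the second control, 1.06 with ethanol, 1.12 in the second E2-BSA and 1.10 with BSA. KIF23 was the highest with G15 (0.78) and with E2-BSA and ICI (0.75). The lowest members there were AURKA with ICI (-0.38) and G15 (-0.54), NUSAP1 with E2-BSA and G15 (-1.16) and CCNA2 with BSA (-0.93), each taken up below. On the other 4 arrays of the set of 8 no member was lower than -0.36.

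**Figure D2:**
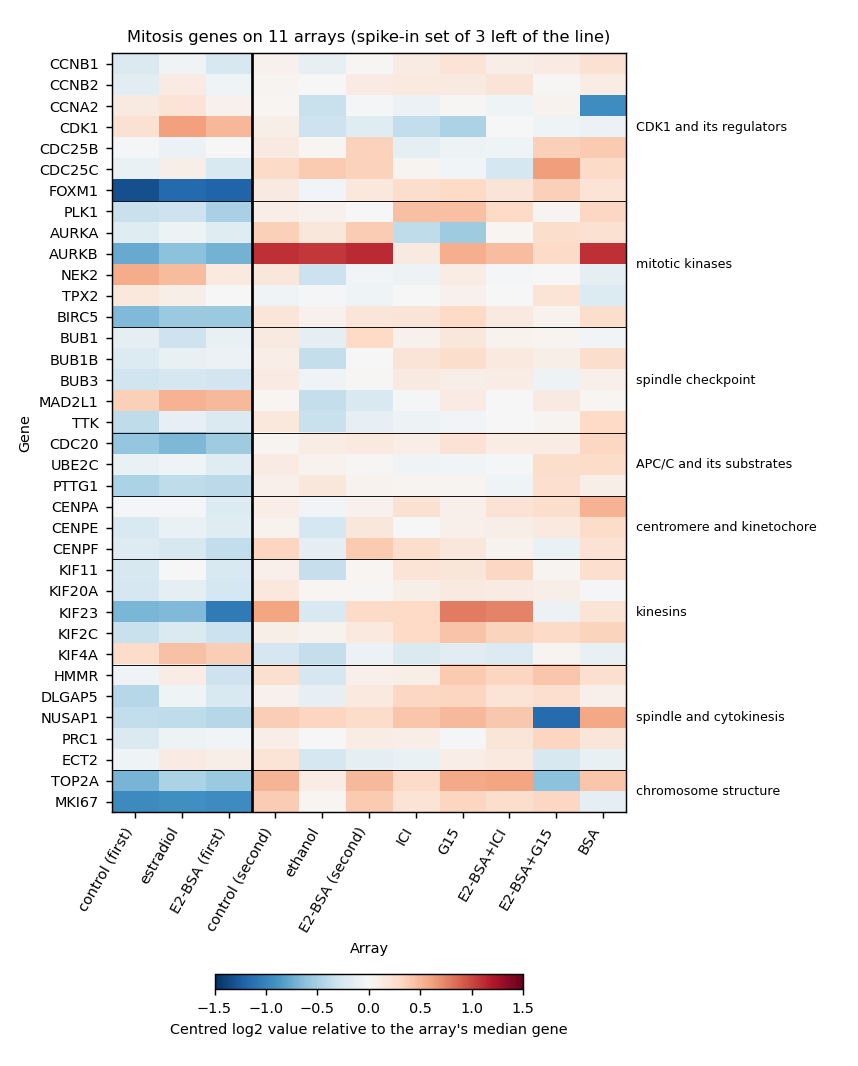
Log2 value of each of the 36 members (rows, grouped by role) on each of the 11 arrays (columns), relative to the array's median gene; blue is below it and red above. FOXM1, MKI67 and AURKB are low in all 3 arrays left of the line, whereas CDK1, MAD2L1 and KIF4A are high there.

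The sets were compared with limma, which fitted a term for each agent and a term for the set to all 11 arrays. Estradiol has a term of its own and a single array, so the set difference rests on the control and E2-BSA duplicates, each of which has 1 array in either set. Of the 36 members, 15 were lower in the set of 3 and 2 were higher at an adjusted p of 0.05, where 12.5% of all genes were called lower and 12% higher. The median member differed by -0.34 and the median gene by 0.02. At an unadjusted p of 0.05, 24 members passed, as did 7257 of the 19775 genes. With no test, 14 members lay below the set of 8 in all 3 arrays, as did 16.3% of all genes, and 4 lay above it in all 3 arrays, as did 15.7%.

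The same difference was present in both duplicated groups. The difference between the first and the second array was -0.36 in the median member for control and -0.35 for E2-BSA. By more than 0.5, 10 members were lower in the first array of both pairs, as were 7.54% of all genes. None was higher by that amount in both pairs, against 6.94% of all genes.

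Among CDK1 and its regulators, 1 of 7 was called. FOXM1, the transcription factor of late cell cycle genes, read -1.32, -1.17 and -1.20 in the first control, estradiol and first E2-BSA arrays, against -0.04, 0.20 and 0.36 as the lowest, median and highest of the set of 8. The 2 ranges did not overlap, and FOXM1 fell by 1.41 ± 0.12 (SE, limma adjusted p = 0.000569). CCNB1, cyclin B1, read -0.22, -0.05 and -0.24 in the same 3 arrays, against -0.12, 0.11 and 0.23. Its ranges overlapped through the ethanol array, and its difference of -0.27 ± 0.09 did not pass (limma adjusted p = 0.0737). CDK1 itself ran the other way, at 0.23, 0.62 and 0.49 against -0.47, -0.13 and 0.08. These ranges did not overlap, yet the difference of 0.41 ± 0.17 did not pass (limma adjusted p = 0.119). Cyclin A2 (CCNA2), which acts with CDK2 and CDK1, differed by 0.10, cyclin B2 (CCNB2) by -0.20, and the phosphatases CDC25B and CDC25C by -0.25 and -0.48, none past the test.

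The mitotic kinases and their partners split. AURKB, the kinase of the chromosomal passenger complex, read -0.76, -0.61 and -0.71 in the set of 3, against 0.13, 0.80 and 1.12. It fell by 1.84 ± 0.17 (SE, limma adjusted p = 0.000682), the largest difference of the 36 members. BIRC5, or survivin, a subunit of the same complex, read -0.66, -0.56 and -0.56 against 0.05, 0.18 and 0.30, and fell by 0.80 ± 0.11 (limma adjusted p = 0.00245). PLK1, the polo-like kinase of mitotic entry, read -0.33, -0.32 and -0.49 against 0.00, 0.20 and 0.45, and fell by 0.46 ± 0.11 (limma adjusted p = 0.0231). None of these 3 had overlapping ranges. AURKA, the centrosomal Aurora kinase, differed by -0.55 ± 0.19 (limma adjusted p = 0.0773), with 2 low arrays in the set of 8 described further on. Its activator TPX2 differed by 0.14 and the centrosomal kinase NEK2 by 0.29, neither past the test.

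Spindle checkpoint genes differed in direction. BUB3, which brings BUB1 and BUBR1 to kinetochores, read -0.30, -0.25 and -0.29 against -0.08, 0.08 and 0.13, and fell by 0.36 ± 0.10 (SE, limma adjusted p = 0.0338). MAD2L1, the MAD2 protein that inhibits CDC20, read 0.36, 0.52 and 0.48 against -0.35, 0.01 and 0.13, and rose by 0.52 ± 0.12 (limma adjusted p = 0.0188). That call rests on 1 of its 3 probe sets, and the others went the other way, as described below. The kinase BUB1 differed by -0.35 (limma adjusted p = 0.052), BUBR1 (BUB1B) by -0.20 and the checkpoint kinase TTK by -0.32, none past the test.

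Both the activator and a main substrate of the anaphase-promoting complex were lower. CDC20, the activator, read -0.58, -0.67 and -0.53 against 0.04, 0.11 and 0.31, and fell by 0.65 ± 0.10 (SE, limma adjusted p = 0.0035). PTTG1, or securin, which is destroyed at anaphase, read -0.47, -0.38 and -0.41 against -0.07, 0.06 and 0.26, and fell by 0.50 ± 0.11 (limma adjusted p = 0.0155). UBE2C, the ubiquitin-conjugating enzyme of the complex, differed by -0.21 (limma adjusted p = 0.276), although its 3 arrays lay just below all of the set of 8.

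At the centromere, CENPF, a kinetochore protein of late G2, read -0.20, -0.24 and -0.36 against -0.14, 0.20 and 0.39, and fell by 0.64 ± 0.12 (SE, limma adjusted p = 0.0065). CENPE, the kinetochore motor, read -0.22, -0.10 and -0.19 against -0.26, 0.08 and 0.28, and fell by 0.32 ± 0.09 (limma adjusted p = 0.0431). The ethanol array, at -0.26, made the CENPE ranges overlap. CENPA, the centromeric histone, differed by -0.19 and did not pass.

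Of 5 kinesins, 3 were lower and 1 higher. KIF23, a motor of the central spindle, read -0.69, -0.67 and -1.06 against -0.22, 0.29 and 0.78, and fell by 1.31 ± 0.26 (SE, limma adjusted p = 0.00964). KIF2C, a microtubule depolymerase, read -0.34, -0.21 and -0.32 against 0.06, 0.30 and 0.43, and fell by 0.45 ± 0.11 (limma adjusted p = 0.0205). KIF20A, which acts in cytokinesis, read -0.25, -0.14 and -0.26 against -0.03, 0.09 and 0.16, and fell by 0.35 ± 0.10 (limma adjusted p = 0.0385). The ranges of these 3 did not overlap. KIF4A, a chromosome-bound motor, read 0.28, 0.44 and 0.37 against -0.35, -0.18 and 0.04, and rose by 0.50 ± 0.10 (limma adjusted p = 0.00984). KIF11, the motor that separates spindle poles, differed by -0.29 and did not pass.

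Among other spindle and cytokinesis genes only DLGAP5, a microtubule-binding spindle protein, was called. It read -0.43, -0.06 and -0.23 against -0.13, 0.18 and 0.32, with overlap, and fell by 0.43 ± 0.11 (SE, limma adjusted p = 0.0296). HMMR differed by -0.34, PRC1, a bundler of midzone microtubules, by -0.24, and NUSAP1 by -0.72. ECT2, the exchange factor that starts furrowing, differed by -0.02. None of these 4 passed.

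Both genes of chromosome structure fell. MKI67, which encodes the proliferation marker Ki-67, a coat of mitotic chromosomes, read -0.96, -0.91 and -0.95 against -0.14, 0.29 and 0.39. It fell by 1.34 ± 0.10 (SE, limma adjusted p = 0.000426), the smallest p of the members, with no overlap. TOP2A, topoisomerase II alpha, read -0.70, -0.47 and -0.56 against -0.61, 0.45 and 0.59, and fell by 1.12 ± 0.32 (limma adjusted p = 0.0371). The lowest TOP2A value of the set of 8, that of the array of E2-BSA with G15, made its ranges overlap.

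**Figure D3:**
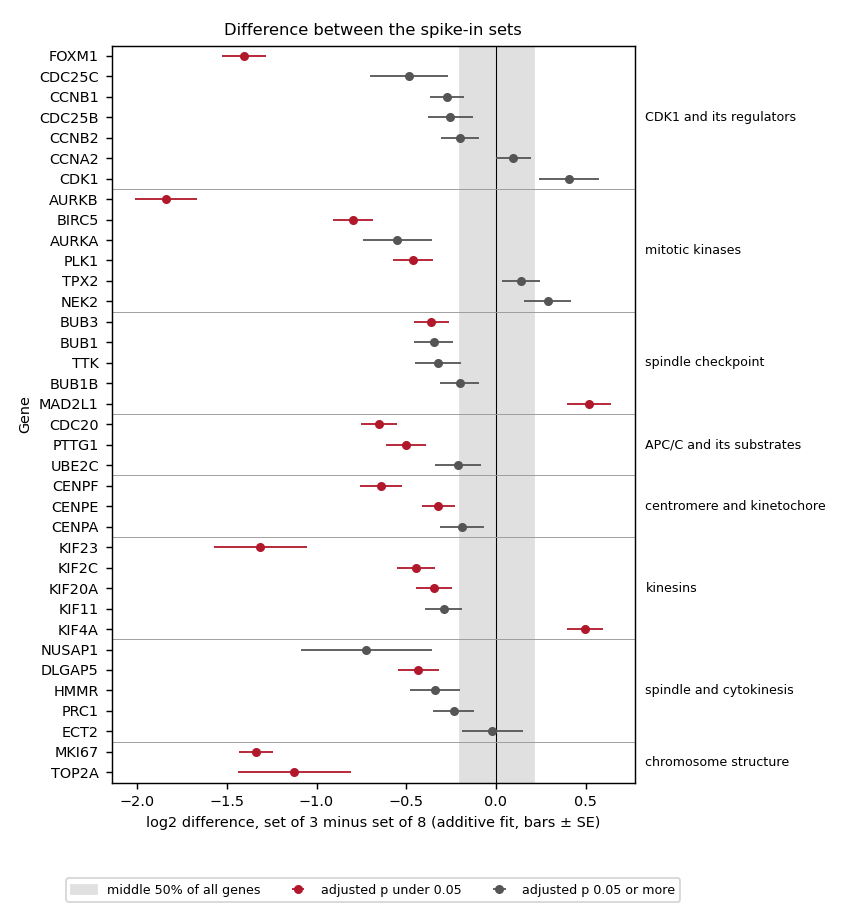
Log2 difference of each member between the set of 3 and the set of 8 from the limma fit, with its standard error, by role; red points passed an adjusted p of 0.05 and grey points did not. Of 36 members, 15 passed on the lower side and 2 on the higher side, and the shaded band holds the middle 50% of all genes.

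How many of these calls stood depended on the 4 duplicate arrays. Of the 15 members called lower, all stayed below 0 with any 1 of them left out, while 7 were still called without the first control array, 6 without the second, 8 without the first E2-BSA array and 4 without the second. With the second E2-BSA array left out neither MAD2L1 nor KIF4A was still called. FOXM1, MKI67 and BIRC5 were called lower in every fit that measured them. The fit to unique _at probe sets, a type described next, measured BIRC5 but neither FOXM1 nor MKI67. On the values as deposited, 9 of the 15 were still called, and after quantile normalization 7 were.

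Several members gave different answers with different probe sets. A probe set whose name ends in _at alone was designed against 1 transcript, while _s_at and _a_at sets match several transcripts and _x_at sets can cross-hybridise. The limma fit to single probe sets called 28 of the 76 lower, from 19 members, and 5 higher, against 11.3% and 10.6% of all 41091 probe sets. MAD2L1, NEK2 and CCNA2 had probe sets called in both directions, as had 408 (3.88%) of the 10523 genes with several. The range between probe sets of a member was 1.10 in the median of 20 members, against 0.519 for all such genes, and was largest in MAD2L1 at 2.98. It passed 1 in 12 of the 20 members and in 22.9% of all such genes.

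The higher value of MAD2L1 came from 1 probe set. MAD2L1 1554768_a_at read 1.82, 2.04 and 1.97 in the set of 3, while 236312_at read -0.57, -0.29 and -0.28 and 203362_s_at read -0.16, -0.18 and -0.25 there. Their set differences were 2.39, -0.59 and -0.24. For NEK2, 211080_s_at differed by 1.14 and 204641_at by -0.57. For CCNA2, 203418_at differed by 0.80 and 213226_at by -0.60. For CDK1, 210559_s_at differed by 1.38 and 203214_x_at by 1.37, while 203213_at differed by -0.20 and 231534_at by -0.92. With unique _at probe sets alone, the sign turned for CDK1 (-0.56), NEK2 (-0.56) and MAD2L1 (-0.58). In that fit NEK2 (limma adjusted p = 0.00833) and MAD2L1 (limma adjusted p = 0.0336) were called lower. CDK1 was not called (limma adjusted p = 0.0521). The direction of these 3 thus depends on which probe sets are read. KIF4A has 1 probe set, a unique _at one, and could not be checked in this way.

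The lower values were more even for some members than for others. All 4 MKI67 probe sets were called lower, by -1.52 to -1.07, and so were all 4 of BIRC5. For KIF23, 244427_at differed by -2.74 and 204709_s_at by 0.12. For AURKB, 239219_at differed by -2.73 and 209464_at by -0.94. For TOP2A, 237469_at differed by -1.78, 201291_s_at by -1.40 and 201292_at by -0.18. For BUB3, 237245_at differed by -1.29 and 209974_s_at by -0.65, both called. Its other probe sets ran from -0.32 to 0.10 and were not called. For CENPF, 207331_at differed by -1.12, 209172_s_at by -0.75 and 207828_s_at by -0.05. FOXM1, CDC20 and PLK1 were each read by 1 probe set. That of FOXM1, 202580_x_at, is of the type that can cross-hybridise, and those of MKI67 are all _s_at sets.

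**Figure D4:**
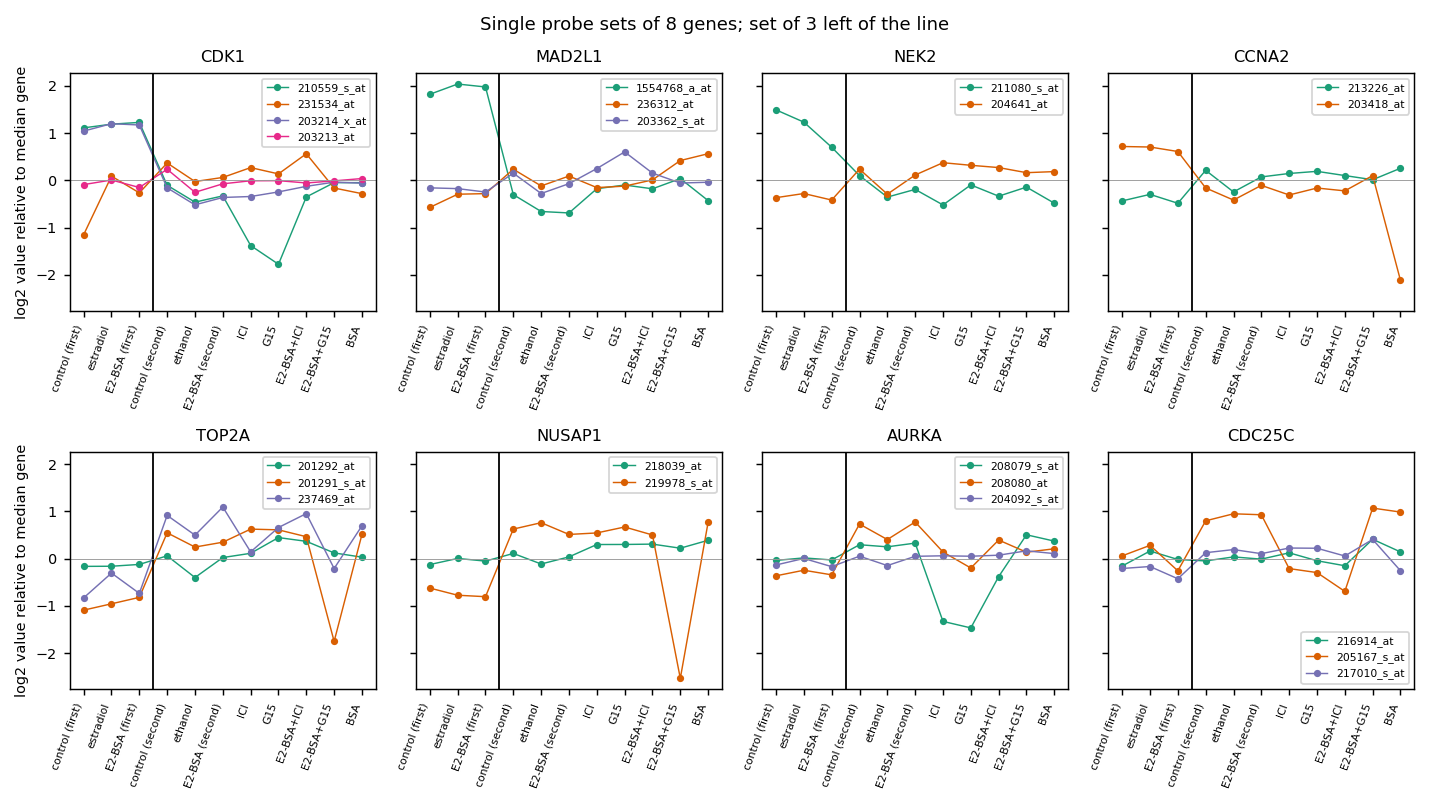
Log2 value of each probe set of 8 members on the 11 arrays, relative to the array's median gene; a colour is a probe set, its points are joined only to be followed, and the set of 3 lies left of the vertical line. In MAD2L1 a single probe set reads 1.82 to 2.04 left of the line, and in CCNA2, NUSAP1 and AURKA a single probe set is low on 1 or a few arrays of the set of 8.

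Other genes of the pathway were read from 6 lists, described by counts alone beside the median gene at 0.02. Of all genes, 12.5% were called lower and 12% higher in this comparison. Whether a list differed from these shares was not tested. Of 53 other kinetochore and spindle genes, 23 were lower and 5 higher in the set of 3, with a median of -0.37. CENPM, a kinetochore subunit, fell by 1.31 ± 0.13 (SE) and TROAP by 0.96 ± 0.10, while SKA1, of the outer kinetochore, rose by 0.67 ± 0.12 and ANLN, or anillin, a scaffold of the cleavage furrow, by 0.82 ± 0.12. Of 16 genes of the anaphase-promoting complex and its enzymes, 6 were lower and 2 higher, with a median of -0.28. UBE2S, its chain-elongating enzyme, fell by 0.82 ± 0.12 and the subunit ANAPC4 by 0.50 ± 0.11, while ANAPC16 rose by 0.40 ± 0.10 and ANAPC10 by 0.87 ± 0.13.

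Of 20 condensin and cohesin genes, 4 were lower and 0 higher, with a median of -0.20. CDCA5, or sororin, which protects cohesion, fell by 0.99 ± 0.12 and the cohesin subunit STAG1 by 0.85 ± 0.16. At the top of that list PDS5A was at 0.25 and NCAPG2 at 0.28, neither past the test. Of 15 genes for MuvB, DREAM and NF-Y regulators, 4 were lower and 3 higher, with a median of -0.11. MYBL2, which encodes B-MYB, fell by 1.28 ± 0.14 and the MuvB subunit LIN52 by 0.58 ± 0.11, while the NF-Y subunit NFYA rose by 0.51 ± 0.11 and E2F5 by 0.80 ± 0.11.

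Lists from outside mitosis differed in both directions. Of 39 genes for G1/S and replication, 20 were lower and 5 higher, with a median of -0.51. MCM5, of the replicative helicase, fell by 1.42 ± 0.15 and the thymidine kinase TK1 by 1.35 ± 0.15, while POLA1 rose by 0.70 ± 0.13 and RFC3 by 0.86 ± 0.12. Of 15 targets in the p53 pathway, 3 were lower and 6 higher, with a median of 0.24. SFN, or 14-3-3 sigma, fell by 0.73 ± 0.11 and the nuclease AEN by 0.49 ± 0.11, while the stress gene GADD45A rose by 0.91 ± 0.17 and the death receptor gene FAS by 1.05 ± 0.13. The median of the mitosis members, -0.34, lay between those of the p53 and the G1/S lists.

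The single agents were compared within the set of 8, each array against the second control array. These differences share that control array and have no replicate check. Differences past 0.5 were counted beside the share of all genes past it. The limma fit with the set term is given for each agent. In that fit the ICI and G15 terms also cover the arrays of E2-BSA with each antagonist. The limma values for ICI and G15 are thus not differences of the agent alone from control.

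BSA left the mitosis genes near the median gene, apart from 2. The median member differed by 0.02, with 17 of 36 above the median gene. By more than 0.5, 2 members were lower and 0 higher, against 2.58% and 1.78% of all genes. CCNA2 read -0.93 with BSA, against -0.33 to 0.06 in the other 7 arrays of the set and 0.02 in the second control, a difference of -0.96. In the limma fit CCNA2 fell by 0.94 ± 0.12 (SE, adjusted p = 0.0301), the only member called of 36, where 0.364% of all genes were called. CCNA2 203418_at read -2.12 with BSA and 213226_at read 0.25, so the lower value rests on the first. The call was lost with any 1 of the 4 duplicate arrays left out, on the values as deposited, after quantile normalization and without the set term.

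MKI67 was the other member, at -0.14 with BSA and 0.38 in the second control, a difference of -0.52. In the limma fit it differed by -0.51 ± 0.12 (adjusted p = 0.264). MKI67 212020_s_at read -0.78 with BSA and 0.26 to 0.85 in the other 7 arrays of the set, while the other 3 probe sets read -0.05 to 0.21 with BSA. CENPA, at 0.52 with BSA, had the highest difference from the second control, 0.42.

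With ethanol most members were lower than in the second control, by small amounts. The median member differed by -0.18, and 4 of 36 lay above the median gene, which differed by -0.0039. By more than 0.5, 1 member was lower and 0 higher, against 1.83% and 1.57% of all genes. That member was KIF23, at -0.22 against 0.59. Limma called 0 members, where 0.0759% of all genes were called, and 10 members had an unadjusted p under 0.05, all lower, as had 1344 of the 19775 genes in either direction. The largest of these after KIF23 was CENPF at -0.57 ± 0.15 (SE, adjusted p = 0.469), followed by NEK2 at -0.47, BUB1B at -0.44, HMMR at -0.43 and KIF11 at -0.41. The 3 members of the anaphase-promoting complex group lay at or above 0, CDC20, PTTG1 and UBE2C between 0.0033 and 0.13. Hybridisation controls averaged 0.77 in the ethanol array and -0.28 to 0.21 in the other 10, and their part in these values was not tested. Without the set term the median member was at 0.0071.

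ICI and G15 left the median member close to the median gene, at -0.06 and 0.03 against the second control. With ICI, 2 members were lower by more than 0.5 and 0 higher, against 1.52% and 1.14% of all genes. AURKB differed by -0.96 and AURKA by -0.73. With G15, 3 members were lower and 0 higher, against 1.74% and 0.996% of all genes. AURKA differed by -0.90, CDK1 by -0.56 and AURKB by -0.55. PLK1 had the highest difference of the members in both arrays, at 0.35 above the second control in each.

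Limma called 0 members for ICI and 0 for G15, where 0% of all genes were called in either, with 4 and 3 members and 1517 and 1184 genes at an unadjusted p under 0.05. AURKB had the smallest p in both, at -0.81 ± 0.17 (SE, adjusted p = 0.606) for ICI and -0.69 ± 0.17 (adjusted p = 0.794) for G15. AURKA was at -0.55 ± 0.19 and -0.51 ± 0.19.

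**Figure D5:**
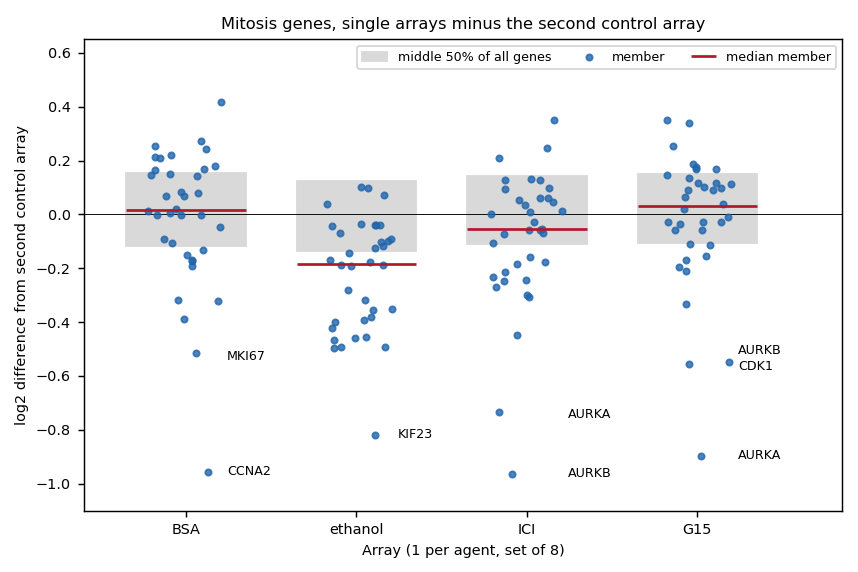
Log2 difference of each of the 36 members between a single array and the second control array, for BSA, ethanol, ICI and G15; points are members, the line their median and the grey box the middle 50% of all genes. Named points are lower by more than 0.5, and the ethanol median lies at -0.18.

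Probe sets of the same gene differed in how low they were on the antagonist arrays. AURKA 208079_s_at read -1.33 with ICI, -1.47 with G15 and -0.38 with E2-BSA and ICI, against 0.25 to 0.50 in the other 5 arrays of the set, while 204092_s_at read 0.06, 0.05 and 0.07 in those 3. The remaining AURKA probe set, 208080_at, read 0.14 with ICI, -0.20 with G15 and 0.14 with E2-BSA and G15. It read 0.21 with BSA, 0.39 with E2-BSA and ICI and 0.40 with ethanol. In the second control it read 0.73 and in the second E2-BSA array 0.77. CDK1 210559_s_at read -1.38 with ICI and -1.78 with G15, while 203213_at read -0.01 in both. CDC25C 205167_s_at read -0.21, -0.30 and -0.69 with ICI, G15 and E2-BSA with ICI, against 0.80 to 1.07 in the other 5 arrays. AURKB 209464_at read -0.22, 0.38 and -0.02 in the same 3 arrays, against 0.85 to 1.13. AURKB 239219_at read 0.49 with ICI and 0.72 with G15, against 1.35 in the second control. With E2-BSA and G15 the 2 AURKB probe sets went apart, 209464_at at 1.13, the highest of the set of 8, and 239219_at at -0.56, the lowest.

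The array of E2-BSA with G15 had low values of its own. Against the second E2-BSA array, 3 members were lower by more than 0.5, where 3.2% of all genes were. NUSAP1, a microtubule-binding protein of the spindle, read -1.16 there and 0.27 to 0.58 in the rest of the set of 8. TOP2A read -0.61, against 0.11 to 0.59. AURKB was the third, at 0.29. NUSAP1 219978_s_at read -2.53 while 218039_at read 0.22, and TOP2A 201291_s_at read -1.75 while 201292_at read 0.12. BUB3 201456_s_at also read -1.02 there, against -0.20 to 0.15 in the other 10 arrays. Without that array 19 members were called lower between the sets, the 15 named above with AURKA, BUB1, CDC25C and NUSAP1, and the same 2 were called higher. The set difference itself could not change, since it rests on the control and E2-BSA duplicates alone. The median member was thus still at -0.34 and the median gene at 0.02.

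The difference between the G15 effects with and without E2-BSA was tested in a limma fit with a mean per group and the set term, which leaves 1 residual degree of freedom and was chosen after the data were seen. NUSAP1 had an interaction of -1.57 ± 0.21 (SE, adjusted p = 0.0349), the only member called, where 0.329% of all genes were called. TOP2A had -1.24 (adjusted p = 0.0765). For ICI no gene was called, with a smallest unadjusted p among the members of 0.00398, for KIF23 at 0.80 ± 0.20.

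Estradiol and E2-BSA gave small differences in these genes. The estradiol array differed from the first control array, which lies in the same set, by 0.11 in the median member, with 28 of 36 members above the median gene. CDK1 was the highest at 0.39 and BUB1 the lowest at -0.15, so no member passed 0.5. Limma called 0 members for estradiol and 0 for E2-BSA, where 0% of all genes were called in either, with 1486 and 1008 genes at an unadjusted p under 0.05. The median member differed by 0.09 with estradiol and by -0.0070 with E2-BSA. At an unadjusted p under 0.05 there was no member for estradiol and 1 for E2-BSA, PLK1 at -0.21 ± 0.08 (SE, adjusted p = 0.859). Among the paired arrays, E2-BSA differed from control by 0.02 in the median member in the set of 3 and by -0.02 in the set of 8.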

How the data were processed

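The 11 arrays, of the type HG-U133 Plus 2.0, hold 9 groups of MDA-MB-231 RNA. The values deposited by the authors were taken as log2 values, centred per probe set. In 50.963% of probe sets the 2 values nearest 0 mirrored each other within 1e-05, which centring on a median leaves. The log base, summarisation, normalization and the arrays centred over are not given in the sources used here, so neither level nor signal over background can be stated, no dim genes were left out, and a base other than 2 would rescale every difference.

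The platform annotation gave 1 symbol to 41091 of 54675 probe sets, several to 1801, and 62 were controls. Probe sets were averaged into 19775 genes, 10523 with several, and each array's median gene was subtracted. The median gene had differed by up to 0.173 between arrays, from -0.07 in the second control array to 0.10 with BSA. The sets of 3 and 8 arrays were divided at the largest gap, 1.30, in the mean of 24 poly-A spike-in probe sets, where the next gap was 0.39.

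Models were fitted in limma 3.58.1 (R 4.3.3), with a variance trend and Benjamini-Hochberg adjustment over all genes at 0.05. They were run on simulated data with independent noise and no array effects, which cannot show how such effects act here. Of added log2 differences of 1, 77.2% were recovered between the sets and 52.8% for BSA, so single-array fits can miss differences of that size. The additive fit had terms for 6 agents and the set, and 3 residual degrees of freedom. An array of E2-BSA with an antagonist carried both terms, so the E2-BSA, ICI and G15 terms average over arrays with and without the other agent. No pair of arrays shared both group and set, so the residual degrees of freedom hold no plain replicates. They come from how control and E2-BSA differ between the sets, and from E2-BSA combined with ICI and with G15. Standard errors and p-values thus measure departures from additive terms. An agent with 1 array was assumed to vary by the same amount. Alternatives were values as deposited, quantile normalization, unique _at probe sets, no set term, a mean per group, no variance trend, and leaving out each duplicate array. The set difference needs the set term, so in its case the agent terms were dropped instead.

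The members, lists, set term and rules were chosen with earlier results of these data known. All members were named. Values per array were given for called members, the 3 highest and 3 lowest by moderated t between the sets, and CCNB1, CDK1, PLK1, TOP2A, MKI67 and FOXM1, and each list was named by its 2 highest and 2 lowest genes. Genes and probe sets singled out beyond that rule were chosen after their values were seen. Among list genes, ANAPC1, BTG2, BBC3 and FDXR were not analysed here.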

Additional observations from a re-analysis of the deposited data

Results flagged for a closer look

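NUSAP1 drew attention because the difference between the G15 and E2-BSA with G15 arrays was not matched between their counterparts without G15. Its interaction of E2-BSA and G15 was -1.57 on the log2 scale in the limma fit with a mean per group and the set term, and its test of the difference itself passed. The value rests on 1 array of E2-BSA with G15 and on 1 of 2 probe sets, 219978_s_at, which read -2.53 there while 218039_at read 0.22.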

How the results depend on the processing

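The set number coincides with the replicate number of the control and E2-BSA arrays, so the set term is also the replicate block, and the labels do not say that a number marks a batch. With only 2 such pairs, the set term compares the first with the second array of each, and no further pairing was fitted. The set difference cannot be fitted without the set term, so the agent terms were dropped for it instead. The fit of the set alone called 17 members lower, 4 higher and 7946 genes. The fit with the agent terms called 15, 2 and 4852. With the set alone, the median member minus the median gene was -0.27. For the agents the replicate block itself was dropped. Without it BSA called 0 members and 8 genes and ethanol 0 genes. The median member minus the median gene was then 0.28 for BSA, 0.013 for ethanol and 0.17 for ICI. It was 0.16 for G15 and -0.015 for estradiol, and the sign turned in all of these but BSA. The signs of MKI67 with BSA (0.16) and ethanol (0.32), and of AURKB with ICI (0.11) and G15 (0.23), also turned. With the set alone, the sign of ECT2 between the sets (0.10) turned too.

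All 15 members called lower between the sets stayed below 0 in every alternative in which they were measured. The count called lower was 9 on the values as deposited, 7 after quantile normalization and between 4 and 19 with 1 array left out. The count called higher was 2 on the values as deposited and 1 after quantile normalization. It was 1 with unique _at probe sets and between 0 and 2 with 1 array left out. With probe sets as features, chosen after the data were seen, 5 were higher. The genes called ran from 1550 to 5717 with 1 array left out. The median member minus the median gene was -0.33 after quantile normalization, -0.44 with unique _at probe sets and -0.41 to -0.33 with 1 array left out. With unique _at probe sets CDK1 (-0.56), NEK2 (-0.56) and MAD2L1 (-0.58) turned in sign, and NEK2 and MAD2L1 were called lower. ECT2 turned on the values as deposited (0.033), with unique _at probe sets (0.20) and within its range of -0.20 to 0.16 with 1 array left out.

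For BSA, 0 members were called on the values as deposited and after quantile normalization, and 0 to 1 with 1 array left out, where 0 to 94 genes were called. Its median member minus the median gene was 0.083 with unique _at probe sets and -0.0044 to 0.053 with 1 array left out. For ethanol, 38 genes were called after quantile normalization, 26 with a mean per group and 0 to 17 with 1 array left out, and the median was -0.20, -0.23 with unique _at probe sets and -0.18 to -0.14. For ICI, 2 genes were called after quantile normalization, 3 with a mean per group and 0 to 28 with 1 array left out, and the median was -0.046, -0.041 and -0.064 to 0.034, a turn in sign. For G15, 14 genes were called with a mean per group and 0 to 4 with 1 array left out, and the median was 0.0064 with unique _at probe sets and -0.016 to 0.050. For estradiol the median was 0.055 after quantile normalization, 0.12 with unique _at probe sets and 0.090 to 0.12 with 1 array left out.

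For single arrays on the values as deposited, BSA had 1 member lower and 1 higher by more than 0.5, and G15 had 1 lower. Against the median of the other arrays without the agent, the median member minus the median gene was 0.035 for BSA (1 lower, 1 higher), -0.21 for ethanol (3 lower, 1 higher), -0.027 for ICI and 0.064 for G15. With unique _at probe sets it was 0.13 for BSA, -0.31 for ethanol (4 lower) and 0.042 for G15. After quantile normalization it was -0.22 for ethanol, with 6 lower. The cause of these changes was not tested.

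The number of arrays limits every comparison. The fit left 3 residual degrees of freedom, all groups but control and E2-BSA had 1 array, and signal over background was not given.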
